A study of Rattus norvegicus with 12 samples.

Results

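The genes described here encode the machinery by which the heart takes up glucose, breaks it down to pyruvate and lactate, burns pyruvate in mitochondria and stores glucose as glycogen. They were taken as a list of 36 gene symbols, chosen by function but with earlier results of these data known. All 36 were found among the 34322 genes of the deposited rat heart count tables. The question asked of them was how their transcript levels stood in rat hearts under sorafenib, a cancer drug that blocks RAF and several growth factor receptor kinases, beside rat hearts under water. Male wild-type Sprague-Dawley rats, of 180 to 200 g at the start and of an age that the labels do not give, received 50 mg/kg sorafenib by gavage once a day for 14 or for 28 days. Control rats received deionized water by gavage over the same times. All 4 groups (water day 14, sorafenib day 14, water day 28 and sorafenib day 28) had 3 libraries each of whole heart tissue, made after removal of ribosomal RNA, and libraries are named here by their group and the replicate number of the title. The labels do not tie each library to its own rat. The p-values therefore set group differences against the spread between these libraries, and speak only for these libraries.

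Glucose enters heart muscle cells mainly through the insulin-responsive transporter GLUT4 (Slc2a4), with the basal transporter GLUT1 (Slc2a1) in a smaller role, and is trapped inside by hexokinases. Phosphofructokinase commits it to glycolysis, and lactate dehydrogenases and monocarboxylate transporters handle lactate, which the heart both takes up and releases. The adult heart burns mostly fatty acids, and pyruvate dehydrogenase, switched off by its kinases and on by its phosphatases, sets how much glucose carbon is oxidized instead.

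The libraries of day 14 held 13746366 to 18534816 counts each. Of the day 28 libraries 5 held 16785038 to 26403196, and sorafenib day 28 replicate 3 held only 1036483. In that shallow library 1 count is worth 0.835 CPM (counts scaled to library size with TMM factors, as for all levels here), so its values of the low members rest on few counts: 5 for Aldoc, 6 for Pfkfb1, 17 for Slc2a1 and 17 for Slc16a3. Heart muscle markers fitted the labelled tissue, with the 10 of the list (among them Myh6, Tnnt2 and Actc1) summing to 36419 to 87202 CPM, whereas the 8 skeletal muscle markers summed to 4.21 to 10.9 CPM. Of the latter Myh1 had 0 counts in every library and Myh4 and Pvalb at most 1, while Tnnt3 had 40 to 138 and Actn3 10 to 41 outside the shallow library. The members together took between 1.30% (sorafenib day 14 replicate 5) and 2.0% (water day 28 replicate 4) of the counts of a library.

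Sorafenib against water gave no member past the threshold, an adjusted p of 0.05 over all genes, at either day or in their average. Most members lay somewhat lower with sorafenib. Hexokinase 2 (Hk2), the insulin-regulated hexokinase of muscle, was closest to the threshold, at 0.630 times its water level on average over the days. Pfkfb1, one of the enzymes that make and break the phosphofructokinase activator fructose 2,6-bisphosphate, lay farthest in the other direction, at 1.83 times its water level.

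At day 14, 24 of 36 members had a negative log2 fold change (sorafenib minus water), from -0.66 to 0.98, with a median of -0.14 beside 0.00 for all 17406 genes tested, of which 49.8% were negative. By edgeR's quasi-likelihood test 0 of 36 passed the adjusted threshold, as did 0% of all genes. At an unadjusted p under 0.05 there were 3 members lower (6.93% of all genes) and 0 higher (7.09% of all genes), and DESeq2 called 0 members against 2.98% of all genes.

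At day 28, 30 of 36 were negative, from -0.65 to 0.89, with a median of -0.30 beside 0.00 for all 17021 genes, of which 50.2% were negative. Again 0 of 36 members and 0% of all genes passed by edgeR. The unadjusted p was under 0.05 for 4 members lower (7.83% of all genes) and 2 higher (7.04%), and DESeq2 called 0 members against 1.74% of all genes.

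Averaged over the days, in a fit of all 12 libraries, 31 of 36 were negative, with a median of -0.23 beside -0.01 for 18174 genes, of which 50.8% were negative. Here 0 of 36 members passed by edgeR while 4.41% of all genes did, with 6 members lower at an unadjusted p under 0.05 (13.2% of all genes) and 1 higher (11%). DESeq2 called 2 members, Hk2 and Pfkfb1, against 10.7% of all genes. The average uses the same libraries as the days, so it is no further support for them. In the plot of fold changes most members lie left of 0, and the median standard error over the members in the average was 0.18.

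**Figure D1:**
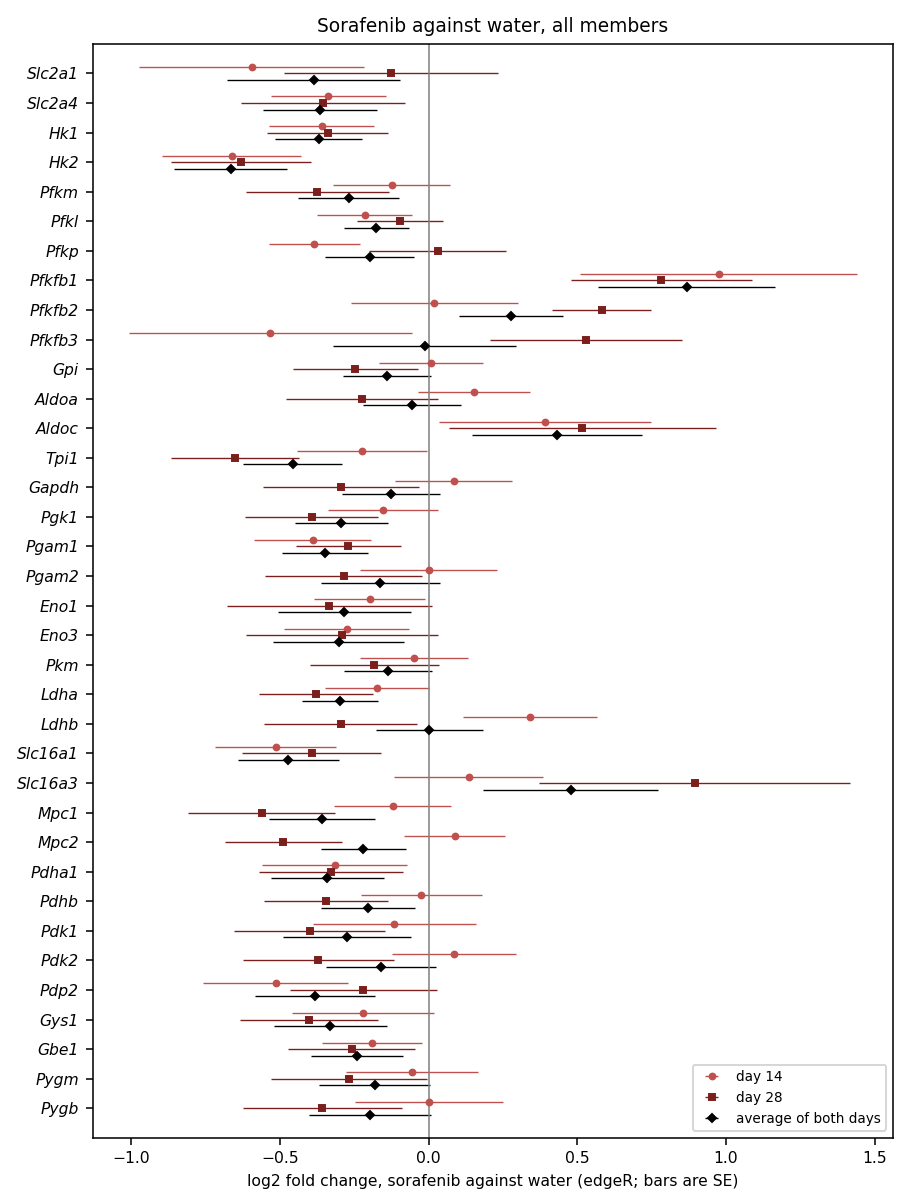
Log2 fold change of sorafenib against water (x axis) for each of the 36 members (y axis) at day 14 (circles), day 28 (squares) and as the average of both days (diamonds), from edgeR, with bars of 1 standard error. Of the members, 24 lie left of 0 at day 14, 30 at day 28 and 31 in the average, and Pfkfb1 is the farthest to the right at day 14 and in the average.

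The lower values were not shared by all sorafenib libraries. The median over the 36 members, relative to the water mean of the day, was -0.49 in sorafenib day 14 replicate 5, against 0.05 in replicate 6 and 0.01 in replicate 7. The day 28 medians were -0.37 in sorafenib replicate 2, -0.72 in the shallow replicate 3 and -0.02 in replicate 4. The water libraries themselves spread from -0.09 to 0.12 at day 14 and from -0.26 to 0.33 at day 28. Thus 1 of the 3 sorafenib libraries at day 14 and 2 of the 3 at day 28 lay below every water library of their day. Leaving out sorafenib day 14 replicate 5 moved the day 14 median fold change from -0.14 to -0.01. Without the shallow library the day 28 median was -0.15, and without water day 28 replicate 4, the library of highest members, it was -0.11.

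**Figure D2:**
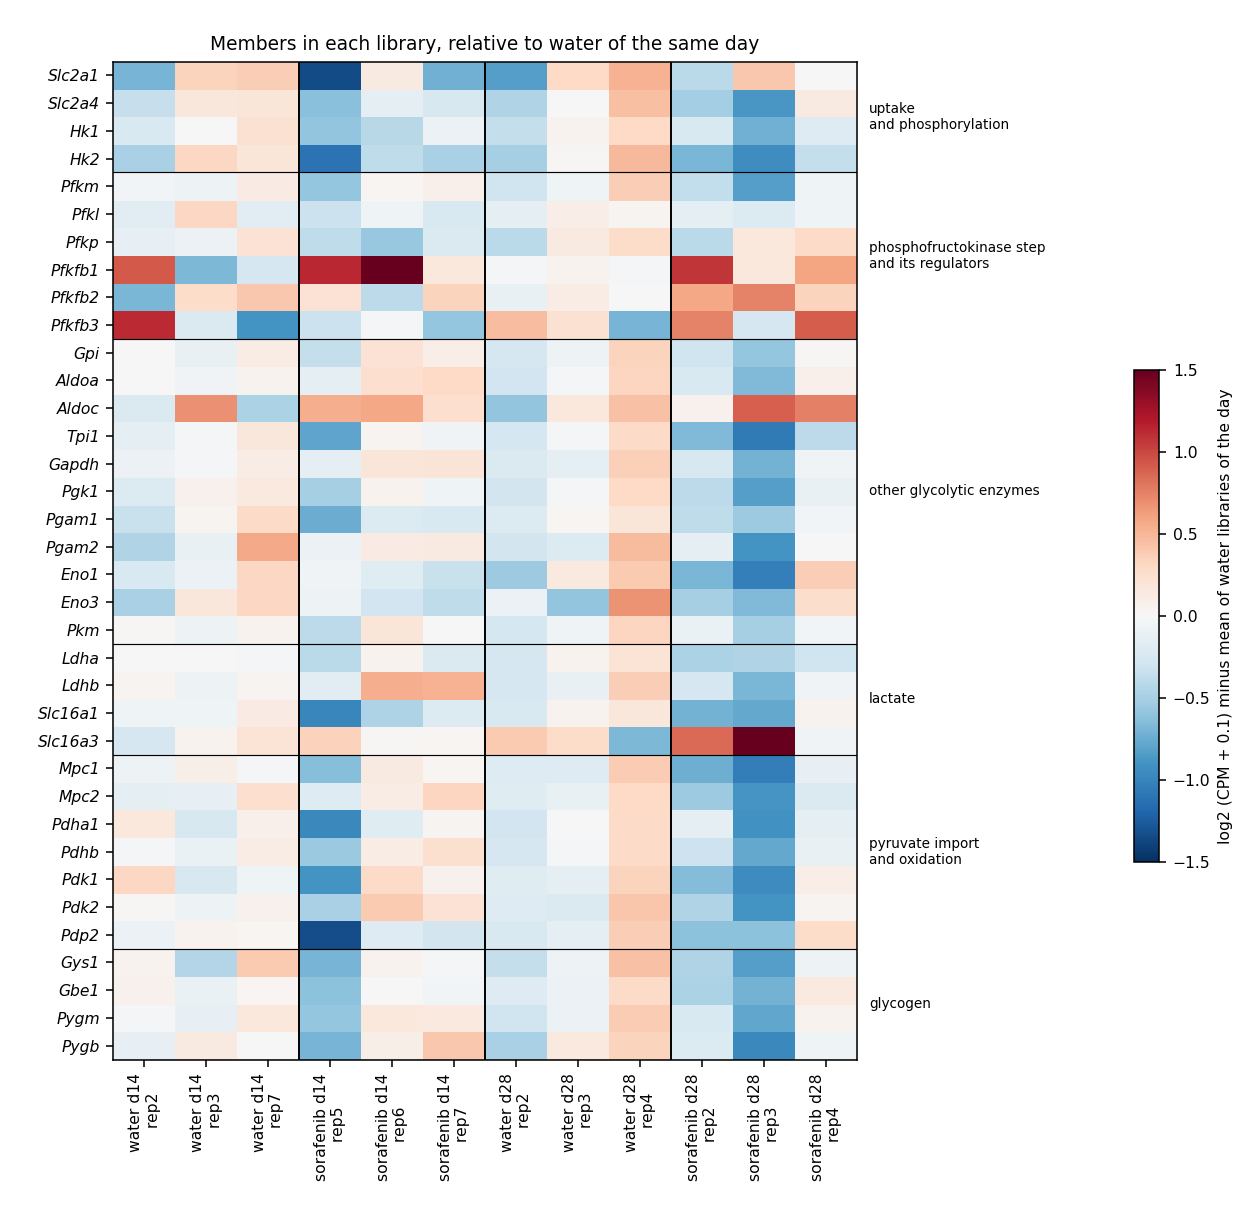
Level of each member (rows, grouped by role) in each of the 12 libraries (columns), as log2 of CPM plus 0.1 minus the water mean of that day, with blue for lower and red for higher levels and the colour scale ending at 1.5 in either direction. Sorafenib day 14 replicate 5 and sorafenib day 28 replicate 3 are blue across most rows, and water day 28 replicate 4 is mostly red.

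By median, markers of heart muscle cells were low in the 2 libraries of lowest members, but not every marker was. In sorafenib day 14 replicate 5 Myh7 and Nppa had 48355 and 1078 counts, against at most 33341 and 406 in water of that day. Actc1 and Pln had 38741 and 28476 there, against at least 85950 and 56333. The median of the 10 cardiomyocyte markers relative to the water mean of the day was -0.34 in sorafenib day 14 replicate 5, against 0.25 and 0.39 in replicates 6 and 7. At day 28 it was -0.66 in the shallow sorafenib replicate 3, 0.10 in replicate 4, and 0.31 in water replicate 4. In sorafenib day 28 replicate 2, where the members were at -0.37, it was -0.07, within the water range of -0.22 to 0.31. By median, smooth muscle and pericyte markers were at 0.67 in sorafenib day 14 replicate 5 and at 0.59 in sorafenib day 28 replicate 3. Both medians were above every water library of their day, but not every marker was. In sorafenib day 14 replicate 5 Acta2 and Myh11 had 1115 and 1798 counts, against at most 616 and 928 in water. Rgs5 and Cspg4 had 1226 and 1702 there, against 1212 to 1622 and 1497 to 2221. In sorafenib day 28 replicate 3 Rgs5 was below water, at 81 counts of 0.835 CPM each. Water of that day had 2184 to 2421 counts of 0.0473 to 0.0492 CPM each. The summed level of the cardiomyocyte markers was 41992 to 54305 CPM in water and 36419 to 58081 in sorafenib at day 14. At day 28 it was 58393 to 87202 against 46971 to 78822, and no defining cardiomyocyte marker was at 0. In bulk tissue fewer cells of a type and less RNA per cell cannot be told apart, and the part of cell makeup in the members' values was not tested. Myeloid markers, the 10 of macrophages and related cells, were lower with sorafenib in 10 of 10 at both days, with median log2 fold changes of -0.87 and -0.68. In the average 3 of them passed edgeR's adjusted threshold, beside 4.41% of all genes. So did 2 of 10 endothelial, 1 of 10 cardiomyocyte and 1 of 9 fibroblast markers. The myeloid markers summed to between 74.8 and 322 CPM over the 12 libraries. In sorafenib day 28 replicate 3 their sum of 271 CPM was above water replicates 2 and 3 (181 and 194 CPM), with a median of 0.09. Sorafenib day 14 replicate 5, at 177 CPM, was likewise above water replicates 3 and 7 (162 and 156 CPM). Its myeloid median of -0.25 lay within the water range of -0.31 to 0.59.

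**Figure D3:**
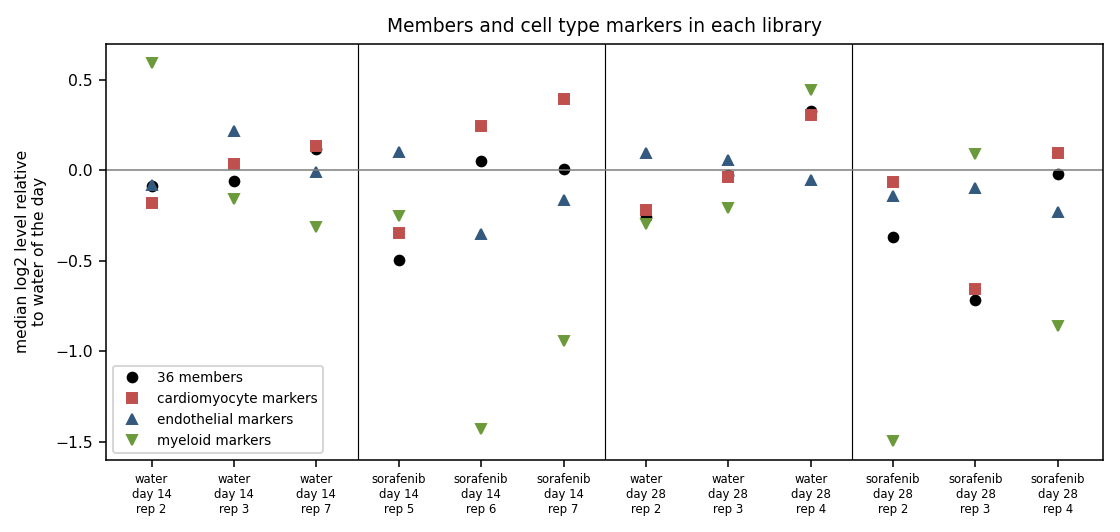
Median log2 level relative to the water mean of the day (y axis) in each of the 12 libraries (x axis) for the 36 members and the markers of cardiomyocytes, endothelial cells and myeloid cells. Members and cardiomyocyte markers are low together in sorafenib day 14 replicate 5 (-0.49 and -0.34) and in sorafenib day 28 replicate 3 (-0.72 and -0.66), and high together in water day 28 replicate 4 (0.33 and 0.31).

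Uptake and phosphorylation had 4 members (Slc2a1, Slc2a4, Hk1 and Hk2), all negative at both days, with medians of -0.48 at day 14 and -0.35 at day 28. Hk2 (chromosome 4, 115234509 to 115283530, minus strand, on mRatBN7.2, from the outermost exons, as for all positions) was measured at 75.6, 131 and 120 CPM in water day 14 replicates 2, 3 and 7, and at 49.1, 81.1 and 75.9 in sorafenib replicates 5, 6 and 7. Levels at day 28 were 72.5, 103 and 143 CPM in water replicates 2, 3 and 4, and 63.5, 53.5 and 80.1 with sorafenib. At each day 2 of the 3 water libraries lay above every sorafenib library, and water replicate 2 lay within the sorafenib range at both days, so the groups overlapped.

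The log2 fold change of Hk2 was -0.66 ± 0.23 (SE) at day 14, with an unadjusted p of 0.018 and an adjusted p of 0.26 by edgeR's quasi-likelihood test. The day 28 value was -0.63 ± 0.23, with an unadjusted p of 0.022 and an adjusted p of 0.29. The average was -0.67 ± 0.19, with an adjusted p of 0.0591 by edgeR and of 0.018 by DESeq2. Over 19 alternatives of the average the adjusted p ran from 0.018 to 0.154 and was under 0.05 in 5: DESeq2, the block on replicate numbers, and leaving out water day 14 replicate 2 (0.0479), water day 28 replicate 2 (0.0361) or sorafenib day 28 replicate 4 (0.0413). Without the shallow library the average was -0.60, and without sorafenib day 14 replicate 5 it was -0.55. The 250 bases before its RefSeq start are shown because Hk2 was the member of smallest p:
Hk2 chr4:116841276-116841525 (- strand): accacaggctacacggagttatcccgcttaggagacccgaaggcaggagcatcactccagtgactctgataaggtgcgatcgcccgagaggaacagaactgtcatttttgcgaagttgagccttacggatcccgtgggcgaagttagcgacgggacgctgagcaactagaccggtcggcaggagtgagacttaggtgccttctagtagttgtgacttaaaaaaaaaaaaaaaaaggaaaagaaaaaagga

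This window, given 5′ to 3′ on the gene's strand from the RefSeq promoter table of the GRCr8 assembly (a later build than that of the counts), holds none of the 5 motifs searched, which are named with the lactate genes and would stand in capitals. That says only that those letters are not in this window. The last bases before the start are rich in adenine.

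Hk1 (chromosome 20, 30230488 to 30332161), the constitutive hexokinase that binds mitochondria, was at 195, 230 and 268 CPM in water and 152, 172 and 215 with sorafenib at day 14. The day 28 levels were 178, 236 and 280 CPM against 194, 138 and 198. The groups overlapped at both days, and the average was -0.37 ± 0.15, with an unadjusted p of 0.024 and an adjusted p of 0.14 by edgeR. The transporter genes were also below water on average, Slc2a4 by -0.37 ± 0.19 and Slc2a1 by -0.39 ± 0.29, and neither reached an unadjusted p of 0.05. Slc2a1 was a low transcript of 5.52 to 18.2 CPM, and Slc2a4 lay between 164 and 411 CPM over all libraries.

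**Figure D4:**
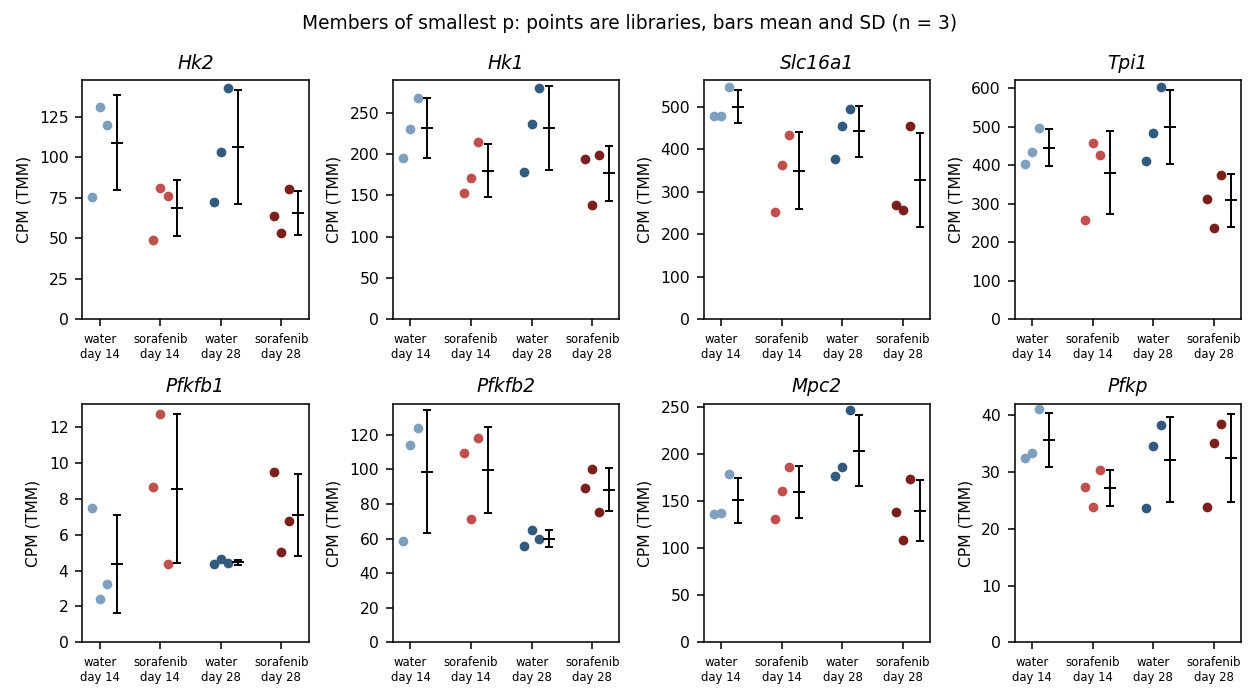
CPM (y axis, from 0) of 8 members in the 4 groups (x axis), with each library as a point and the mean and SD of 3 libraries as a bar. For Hk2, 2 of the 3 water libraries at each day lie above all sorafenib libraries, and for Pfkfb1 and Pfkfb2 the sorafenib libraries of day 28 lie above all water libraries of that day.

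The phosphofructokinase step had 6 members, 3 catalytic subunits and 3 regulators. Pfkm, the muscle subunit, made up most of the subunit transcripts, with 166 ± 12.4 CPM per kilobase of exon in water at day 14 (SD, n = 3), against 14.8 ± 2.89 for the liver type Pfkl and 5.60 ± 0.757 for the platelet type Pfkp. Pfkm had log2 fold changes of -0.12 ± 0.20 and -0.37 ± 0.24 at days 14 and 28, and Pfkl of -0.22 ± 0.16 and -0.10 ± 0.14.

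Pfkp (chromosome 17, 63729743 to 63794021) was at 32.4, 33.3 and 41.2 CPM in water day 14 and at 27.3, 23.9 and 30.4 with sorafenib. All 3 sorafenib libraries were below all water libraries, and the difference was -0.38 ± 0.15, with an unadjusted p of 0.032 and an adjusted p of 0.32 by edgeR. At day 28 Pfkp overlapped between the groups, at 23.8, 34.5 and 38.2 CPM against 23.8, 35.1 and 38.5, and the difference was 0.03 ± 0.23.

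The regulators are the bifunctional enzymes that set fructose 2,6-bisphosphate. Pfkfb1 (chromosome X, 19508522 to 19562165), the form of liver and skeletal muscle, was a low transcript at 7.45, 2.39 and 3.25 CPM in water and 8.64, 12.7 and 4.36 with sorafenib at day 14. At day 28 the water libraries were close together at 4.37, 4.63 and 4.40 CPM, and the sorafenib libraries stood at 9.49, 5.01 and 6.77. The groups overlapped at day 14 and did not at day 28, where the lowest sorafenib value, from the shallow library, rests on 6 counts. The differences were 0.98 ± 0.46 (adjusted p 0.39) and 0.78 ± 0.30 (adjusted p 0.30) by edgeR, and the average was 0.87 ± 0.30 with an adjusted p of 0.10. DESeq2 gave the average an adjusted p of 0.0495, and leaving out water day 14 replicate 2 one of 0.0413, within a range of 0.0413 to 0.27 over 19 alternatives.

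Pfkfb2 (chromosome 13, 42147473 to 42174699), the heart form, had the smallest unadjusted p of all members at day 28. It was at 55.5, 64.9 and 59.5 CPM in water and at 89.2, 100.2 and 75.2 with sorafenib, all 3 above every water library. The difference was 0.58 ± 0.17, with an unadjusted p of 0.0055 and an adjusted p of 0.21 by edgeR, and it was 0.47 without the shallow library. At day 14 the groups overlapped, at 58.4, 114 and 124 CPM against 109, 71.5 and 118, with a difference of 0.02 ± 0.28. Pfkfb3, the inducible form, ran from 37.6 to 153 CPM in water at day 14 and from 46.9 to 69.8 with sorafenib, and its differences were -0.53 ± 0.48 at day 14 and 0.53 ± 0.32 at day 28.

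Of the 11 other glycolytic enzymes, which carry sugar phosphates down to pyruvate, 6 were negative at day 14 and 10 at day 28, with medians of -0.05 and -0.29. Tpi1 (chromosome 4, 157615283 to 157618813), triosephosphate isomerase, was at 411, 484 and 602 CPM in water and 313, 236 and 376 with sorafenib at day 28. There the groups did not overlap, with a difference of -0.65 ± 0.21, an unadjusted p of 0.012 and an adjusted p of 0.25 by edgeR. Without the shallow library it was -0.52. At day 14 Tpi1 was at 404, 435 and 498 CPM against 257, 457 and 427, which overlap, with a difference of -0.23 ± 0.22. Its average of -0.46 ± 0.17 had an unadjusted p of 0.016 and an adjusted p of 0.12.

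The most abundant glycolytic transcripts per length were Gapdh, at 1478 ± 105 CPM per kilobase in water at day 14, and Aldoa, at 695 ± 26.2. Their sorafenib differences were 0.08 ± 0.20 and 0.15 ± 0.19 at day 14, and -0.29 ± 0.26 and -0.22 ± 0.26 at day 28. Gapdh is often taken as a reference gene, and its groups overlapped at both days. Pgam1, a phosphoglycerate mutase, averaged -0.35 ± 0.14, with an unadjusted p of 0.030 and an adjusted p of 0.16 by edgeR. Gpi, Pgk1, Pgam2, Eno1, Eno3 and Pkm averaged between -0.30 and -0.14, and none of them had an unadjusted p under 0.05. Aldoc, the aldolase of brain, stood on the other side at 0.43 ± 0.29, and at 1.42 to 4.18 CPM it was close to the limit of these counts.

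Lactate handling had 4 members, 2 of them negative at day 14 and 3 at day 28. Slc16a1 (chromosome 2, 192123755 to 192144617), the monocarboxylate transporter MCT1 that carries lactate and pyruvate across the cell membrane, was at 478, 477 and 545 CPM in water and 252, 362 and 434 with sorafenib at day 14. On day 28 the gene stood at 376, 454 and 495 CPM against 269, 257 and 455. All sorafenib libraries were below all water libraries at day 14, while at day 28 sorafenib replicate 4 lay within the water range. The differences were -0.51 ± 0.20 (unadjusted p 0.031, adjusted p 0.31) and -0.39 ± 0.23 by edgeR, and the average was -0.47 ± 0.17 with an adjusted p of 0.11. Leaving out sorafenib day 28 replicate 4 gave the average an adjusted p of 0.0265, the lowest of 19 alternatives, the highest being 0.266.

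Slc16a1 is shown because its window has both an E-box and a GC box, here in capitals, in 250 bases before the RefSeq start:
Slc16a1 chr2:194812410-194812659 (+ strand): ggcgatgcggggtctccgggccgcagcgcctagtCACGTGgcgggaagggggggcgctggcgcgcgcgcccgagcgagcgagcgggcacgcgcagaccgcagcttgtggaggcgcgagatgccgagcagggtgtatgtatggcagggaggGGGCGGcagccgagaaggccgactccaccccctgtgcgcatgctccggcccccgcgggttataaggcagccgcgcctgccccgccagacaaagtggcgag

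Across the 33 members with a RefSeq promoter on GRCr8 (Slc2a4, Pgk1 and Pdp2 had no entry), both strands of these windows were searched. The ACGTG core read by hypoxia-inducible factors stood in 13 of 33 members, against 16.6% of all promoters of that length. The E-box CACGTG, which is read by MYC and USF factors and contains that core, stood in 5 (Pfkfb3, Ldha, Slc16a1, Pdhb and Pdk2) against 5.59% of all. The GC box GGGCGG, read by SP factors, stood in 18 against 30.5% of all. The oestrogen-related receptor motif TNAAGGTCA stood in 0 against 1.04%, and the MEF2 consensus in 0 against 2.96%. A match is a description of the letters and no evidence of a factor at work.

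Ldha, the subunit of lactate dehydrogenase that favours lactate production, was at 709, 874 and 971 CPM in water and 605, 618 and 686 with sorafenib at day 28, and was singled out after its values were seen because the groups did not overlap. Its day 28 difference of -0.38 ± 0.19 had an unadjusted p of 0.078, and its average of -0.30 ± 0.13 had one of 0.036 and an adjusted p of 0.17 by edgeR. Ldhb, the subunit of oxidative tissue, averaged 0.00 ± 0.18. Slc16a3, the lactate exporter MCT4, was at only 2.23 to 6.56 CPM outside the shallow library, where 17 counts gave 14.2 CPM. Its exons overlap those of Csnk1d on the other strand, which reaches 132 CPM, so its value is uncertain.

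Mitochondrial import and oxidation of pyruvate covered 7 members, of which 5 were negative at day 14 and 7 at day 28, with medians of -0.12 and -0.37. Mpc2 (chromosome 13, 77728176 to 77747664), a subunit of the mitochondrial pyruvate carrier, was at 177, 186 and 246 CPM in water and 138, 109 and 173 with sorafenib at day 28. These did not overlap, with a difference of -0.49 ± 0.20, an unadjusted p of 0.032 and an adjusted p of 0.30 by edgeR. Without the shallow library it was -0.37. Its partner Mpc1 had -0.56 ± 0.25 at day 28, with an unadjusted p of 0.046. At day 14 Mpc2 overlapped at 136, 138 and 178 CPM against 131, 161 and 186, with a difference of 0.09 ± 0.17.

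Pdp2 (chromosome 19, 386408 to 394068), a phosphatase that switches pyruvate dehydrogenase on, was at 85.5, 94.2 and 92.8 CPM in water and 36.2, 79.3 and 75.1 with sorafenib at day 14. The groups did not overlap, but replicate 5 was far below the other sorafenib libraries, and the difference moved from -0.51 ± 0.24 (unadjusted p 0.062, adjusted p 0.38 by edgeR) to -0.23 without it. At day 28 the groups overlapped, at 66.0, 69.8 and 99.6 CPM against 50.5, 50.1 and 93.3. The dehydrogenase subunits Pdha1 and Pdhb averaged -0.34 ± 0.19 and -0.20 ± 0.16, and the inhibitory kinases Pdk1 and Pdk2 averaged -0.27 ± 0.22 and -0.16 ± 0.19. None of these 4 had an unadjusted p under 0.05 at any day or on average.

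Of the 4 glycogen genes 3 were negative at day 14 and 4 at day 28, with medians of -0.12 and -0.31. The synthase Gys1, the branching enzyme Gbe1 and the phosphorylases Pygm (muscle) and Pygb (brain) had log2 fold changes between -0.22 and 0.00 at day 14 and between -0.40 and -0.26 at day 28. Their groups overlapped at both days, and none had an unadjusted p under 0.05. Pygm was the main phosphorylase, at 293 ± 29.6 CPM per kilobase in water at day 14 against 121 ± 10.7 for Pygb.

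Separation of all 3 sorafenib libraries from all 3 water libraries was no more common among members than among all genes. At day 14 it held for 3 members on the lower side (Slc16a1, Pfkp and Pdp2), against 10.6% of all genes, and for 0 on the higher side, against 10.5%. At day 28 it held for 3 lower (Tpi1, Ldha and Mpc2) against 11.9% of all genes, and for 2 higher (Pfkfb1 and Pfkfb2) against 10.1%. No member was separated at both days.

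The difference between the days was tested as the interaction of treatment and day. By edgeR 0 of 36 members passed, as did 0% of all genes, with 0 members against 4.42% of all genes at an unadjusted p under 0.05. DESeq2 called 0 members against 0.0495% of all genes. The smallest p belonged to Mpc2, at -0.61 ± 0.29 (day 28 minus day 14), then Ldhb at -0.67 ± 0.36, Pfkfb3 at 1.05 ± 0.62, Pfkfb2 at 0.53 ± 0.35 and Tpi1 at -0.46 ± 0.33, and the smallest adjusted p was 0.999. The standard errors were wide, at a median of 0.36 over the members, so the absence of calls does not show that the days were alike.

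Isoform use was compared as the ratio of counts per kilobase of 2 genes of the same step within each library, which does not depend on scaling between libraries. Hk1 stood at 1.82 times Hk2 in water at day 14 and 1.87 times at day 28. Slc2a4 outweighed Slc2a1, which was at 0.0430 of its level at day 14, and Ldhb outweighed Ldha, which was at 0.383 of its level at day 14 and 0.211 at day 28. Pgam1 was at 0.641 of Pgam2 at day 14 and at 0.269 at day 28. Slc16a3 was at 0.0092 of Slc16a1, and Aldoc at 0.0019 of Aldoa.

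Sorafenib and water ratios were compared by an exact two-sided permutation test within days (400 arrangements, smallest possible p of 0.005). A ratio that changed alone could not go below an adjusted p of 0.055 over the 11 pairs, so 1 ratio could not have passed the threshold by itself. The lowest adjusted p was 0.206. The log2 ratio of Hk1 to Hk2 was higher with sorafenib by 0.28 (exact permutation p of 0.05), with 0.29 at day 14 and 0.27 at day 28. That of Slc16a3 to Slc16a1 was higher by 1.04 (exact permutation p of 0.06), or by 0.71 without the shallow library. That of Ldha to Ldhb was lower, at -0.29 (exact permutation p of 0.065), with -0.49 at day 14 and -0.08 at day 28.

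**Figure D5:**
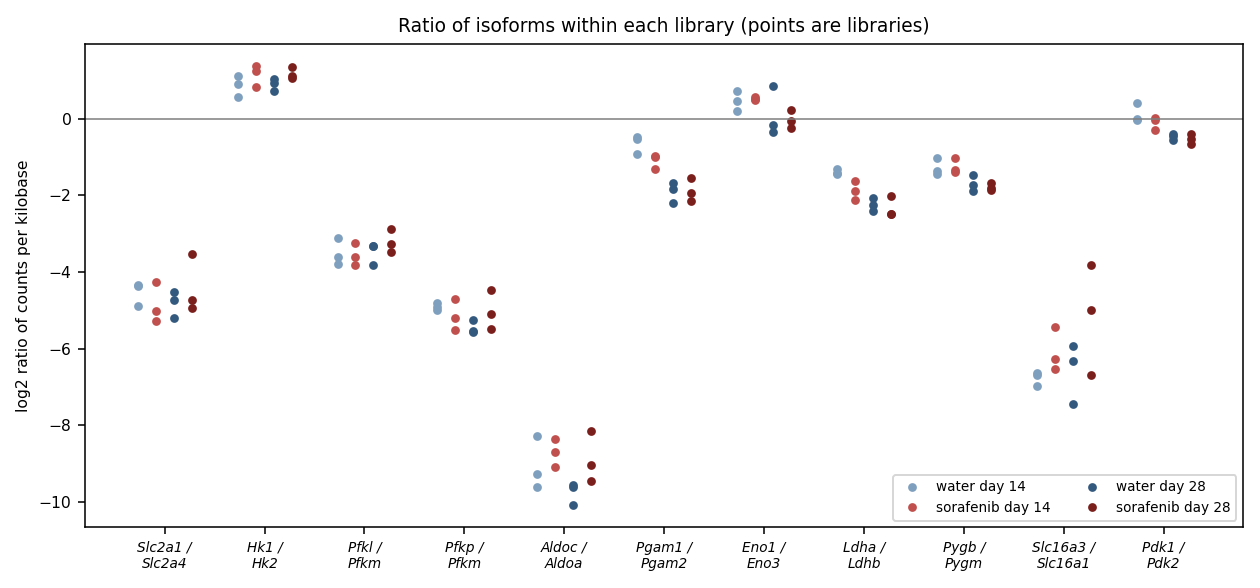
Log2 ratio of counts per kilobase of exon (y axis) for 11 pairs of isoforms or enzymes of the same step (x axis), each point a library, coloured by group. For 5 of the pairs (Pfkp to Pfkm, Pgam1 to Pgam2, Ldha to Ldhb, Pygb to Pygm and Pdk1 to Pdk2) the ratio is lower in all 3 water libraries of day 28 than in all 3 of day 14. These pairs were singled out after their values were seen, and ratios were not tested between the water groups. For Pygb to Pygm the gap is narrow, from -1.45 (water day 28 replicate 3) to -1.44 (water day 14 replicate 7).

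Between the water groups the level of some members did differ past the threshold. These libraries are also the controls of the comparisons above, which therefore share them. Day cannot be told apart from the age of the rats, the count table and any handling specific to that day. Of the 36 members 3 rose from day 14 to day 28 (beside 8.51% of all genes called, and 5.8% of all genes called higher), and 0 fell. DESeq2 called 5 members against 13.9% of all genes. The members' median was 0.20 beside -0.04 for all genes, and 26 of 36 were positive.

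Pgam2 (chromosome 14, 80681796 to 80683907), the muscle phosphoglycerate mutase, rose most. It was at 89.7, 113 and 182 CPM in water at day 14 and at 302, 317 and 507 at day 28, with no overlap. The log2 fold change was 1.55 ± 0.29, or 2.92-fold, with an adjusted p of 0.0052 by edgeR, and it passed in all 18 alternatives (adjusted p of 5.8e-06 to 0.035). The 250 bases before its RefSeq start are shown because Pgam2 changed most. They hold no exact match to the 5 motifs, and near matches were not searched:
Pgam2 chr14:84897875-84898124 (- strand): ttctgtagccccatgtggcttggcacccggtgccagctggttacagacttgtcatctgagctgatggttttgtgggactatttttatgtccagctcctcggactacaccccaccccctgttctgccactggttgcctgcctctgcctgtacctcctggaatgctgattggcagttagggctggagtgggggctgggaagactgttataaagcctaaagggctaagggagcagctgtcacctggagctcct

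Ldhb (chromosome 4, 175428382 to 175446403) was at 1588, 1459 and 1579 CPM in water at day 14 and at 2514, 2773 and 3892 at day 28. It rose by 0.99 ± 0.25 on the log2 scale, with an adjusted p of 0.029 by edgeR, and passed in 13 of 18 alternatives. Aldoa (chromosome 1, 181402275 to 181407476), the muscle aldolase, was at 1284, 1241 and 1338 CPM and then at 1818, 2181 and 2776. It rose by 0.81 ± 0.23, with an adjusted p of 0.047 by edgeR, close to the threshold, and passed in 9 of 18. Neither gene overlapped between the days, and Gapdh, the next member, had 0.76 ± 0.24 and an adjusted p of 0.061.

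Leaving out any of water day 14 replicate 2, 3 or 7 or water day 28 replicate 3 or 4 ended the calls of Ldhb (adjusted p of 0.0804, 0.107, 0.0704, 0.0661 and 0.119) and of Aldoa (0.121, 0.142, 0.0972, 0.114 and 0.178). The sorafenib libraries are not among those compared but enter the same fit. Without sorafenib day 14 replicate 6 or 7 or sorafenib day 28 replicate 2 Aldoa was at 0.0674, 0.066 and 0.0669, and with the trend of gene length removed at 0.068. Cardiomyocyte markers were higher at day 28 in 10 of 10, with 3 called (beside 8.51% of all genes) and a median of 0.58. Their summed level was 58393 to 87202 CPM against 41992 to 54305. The rise was not confined to that list. Of the 8 smooth muscle and pericyte markers 3 were called and 2 were lower, with a median of 0.64. Of the 9 fibroblast markers 0 were called and 2 were lower, with a median of 0.20. The part of any cell type in the members' rise was not tested.

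Among 94 other genes of glucose metabolism and its control, 89 were tested in the average and 4 fell with sorafenib while 0 rose. Mef2a, a muscle transcription factor known to control Slc2a4, was at 217, 264 and 263 CPM in water and 137, 164 and 171 with sorafenib at day 14, and at 199.5, 220 and 265 against 121, 134 and 191 at day 28. Its sorafenib libraries were below every water library of their day at both days, with -0.63 ± 0.13 on average and an adjusted p of 0.025 by edgeR. Stbd1, which tethers glycogen to membranes, fell by 0.77 ± 0.16 on the log2 scale (adjusted p 0.025) at 4.03 to 10.3 CPM. Tigar, which degrades fructose 2,6-bisphosphate, fell by 0.59 ± 0.15 (adjusted p 0.042), and Rpia of the pentose phosphate pathway fell by 0.47 ± 0.13 (adjusted p 0.049).

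These calls differed in how they held: Stbd1 passed in 15 of 19 alternatives, Mef2a in 14, Tigar in 9 and Rpia in 3. Mef2a was lost without water day 14 replicate 3 (0.0653), sorafenib day 14 replicate 6 (0.0551), water day 28 replicate 3 (0.0503) or 4 (0.0538), or sorafenib day 28 replicate 2 (0.0828). Stbd1 was lost without water day 14 replicate 3, sorafenib day 14 replicate 6 or 7, or sorafenib day 28 replicate 2, at adjusted p of up to 0.0887. Tigar was lost without any single library except water day 28 replicate 2 and sorafenib day 28 replicate 4, at up to 0.134, and Rpia without any single library, at up to 0.124. The 4 calls among 89 genes stand beside 4.41% of all genes called in that comparison.

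In the average 63 of the 89 were negative, beside 50.8% of all genes, with a median of -0.19 beside -0.01. DESeq2 called 11 of them, against 10.7% of all genes. Not all of these fell: Pfkfb4, Mlxipl and Ogt were higher with sorafenib, with edgeR log2 fold changes of 0.75, 0.66 and 0.29. Within single days 0 of 88 passed by edgeR at either day, with 13 at day 14 and 19 at day 28 at an unadjusted p under 0.05. Over all genes 6.93% were lower and 7.09% higher at that p at day 14, and 7.83% and 7.04% at day 28. DESeq2 called 2 of the 88 at day 14 and 1 at day 28, against 2.98% and 1.74% of all genes. Those of day 14 were Mef2a, which was lower, and Txnip, which was higher (edgeR log2 fold change 0.68 ± 0.22). That of day 28 was Mlxipl. The smallest p at day 14 belonged to Mef2a, Tigar and Hif1a, the hypoxia-inducible factor subunit, at -0.65 ± 0.15, -0.57 ± 0.16 and -0.47 ± 0.15. At day 28 it belonged to Mlxipl, the glucose-sensing factor ChREBP, at 0.95 ± 0.22, to Phka1, a phosphorylase kinase subunit, at -0.64 ± 0.18, and to Pfkfb4, a further bifunctional enzyme, at 1.27 ± 0.37. For the difference between days 0 of 89 passed by edgeR (0% of all genes) and 0 by DESeq2 (0.0495% of all genes). By edgeR 4 had an unadjusted p under 0.05, against 4.42% of all genes, and Slc16a7, Myc and Tbc1d4 were the lowest in p. In water, 6 rose from day 14 to day 28 (Myc, Irs2, Bsg, G6pc3, Pdk4 and Epas1), against 5.8% of all genes, and Ppp1r3b fell, with 8.51% of all genes called in either direction. Bsg, the chaperone that brings MCT1 to the membrane, rose by 1.08 ± 0.22 from 142, 181 and 188 to 303, 342 and 437 CPM, with an adjusted p of 0.0086 by edgeR. Pdk4, the fasting-responsive pyruvate dehydrogenase kinase, rose by 1.79 ± 0.50 (adjusted p 0.042) from 529, 85.9 and 326 to 1277, 1059 and 927 CPM. Bsg passed in 18 of 18 alternatives, as did Myc and Irs2, while G6pc3 passed in 11, Ppp1r3b in 10, and Pdk4 and Epas1 in 8. Pdk4 was lost without water day 14 replicate 3 or 7, any water library of day 28, or sorafenib day 14 replicate 5 or 7 or sorafenib day 28 replicate 4, at adjusted p of up to 0.0984, and at 0.153 with no filter.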

How the data were processed

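Groups were taken from the labels. Libraries came from a kit that marks strand after depletion of ribosomal RNA, as the labels' protocols state. The files hold raw deposited read counts per gene, made by the authors with featureCounts 2.0.1 in paired mode with no strand setting on a RefSeq annotation of mRatBN7.2, per the file headers. Reads of overlapping genes therefore cannot be told apart, which touches 8 of the 36 members (Hk1, Pfkm, Aldoa, Tpi1, Ldha, Slc16a3, Pdha1 and Pygm). STAR is named without a version in the submitters' processing notes. Each day has its own count table, and 2 columns that match no sample were not used here.

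Tests on counts used edgeR 4.0.16 (filterByExpr, TMM, robust quasi-likelihood) under R 4.3.3, with Benjamini-Hochberg adjustment over all genes tested. Each day was fitted alone, and the average, the difference and the water comparison came from a fit of all 12 libraries. Standard errors were taken as log2 fold change over the square root of F. Isoform ratios of counts per kilobase, with nothing added to the counts, had exact permutation tests within days, adjusted over 11 pairs. Their alternatives were 0.5 added to counts and each library left out. Code was tested on simulated counts. Alternatives tried were RLE factors, DESeq2 1.42.0, no low-count filter, a filter of 1 CPM in 3 libraries, no robust dispersion, removal of gene length trends (lowess span 0.3), a fit of all groups, a block on replicate numbers and each library left out.

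The members and lists were chosen with earlier results of these data known. Genes were named by rule: members past the threshold in a comparison, otherwise the 5 of smallest p, and for other pathway genes likewise with 3. The other members are given more briefly under their role, and those singled out among them (such as Ldha, Pgam1 and Mpc1) were chosen after their values were seen. No 2 libraries of a group agreed within sampling noise (smallest chi-square per gene 8.075). The other marker lists (endothelial, fibroblast, smooth muscle and pericyte, red cell, skeletal muscle and adipose) had median log2 fold changes in the average of -0.16, -0.17, 0.07, -0.23, -0.44 and -0.91, the last pair over 4 and 2 tested genes.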

Additional observations from a re-analysis of the deposited data

How the results depend on the processing

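No member passed at day 14, at day 28 or for the difference under any alternative, and the members' median stayed negative at day 14 (-0.25 to -0.01), at day 28 (-0.44 to -0.11) and in the average (-0.32 to -0.14). In the average DESeq2 called 2 members and the replicate block 1, and leaving out 1 library gave 0 to 2. For water at day 28 against day 14 DESeq2 called 5, and leaving out 1 library gave 1 to 4. Over all genes edgeR called 0 at day 14, 0 at day 28, 801 in the average, 0 for the difference and 1546 in water, and DESeq2 called 438, 279, 1836, 9 and 2332. No filter called 87 and 82 at the days, a fit of all groups 4 and 53, and removal of length trends 5 at day 28. Leaving out 1 library gave 0 to 27, 0 to 3, 35 to 1562, 0 to 1 and 558 to 1812. The cause was not tested.

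At day 28 replicate numbers are shared by the groups. Same-numbered libraries correlated in their deviations by 0.106, 0.007 and 0.190, and libraries of unlike number by -0.191 to 0.058. Not every library correlated best with its own number (water replicate 3 did so with sorafenib replicate 2). With 3 libraries per group these values cannot tell whether same-numbered libraries share more than a number. The block called 0 members at day 28 (108 genes in all), 1 in the average, Hk2 (1648 genes in all), and 0 for the difference. At day 14 the groups share only number 7, so no block was possible there.

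Of the isoform ratios a single one could not go below an adjusted p of 0.055, so the absence of calls under the alternatives says nothing on stability. With 1 library left out the log2 ratio changed sign for Slc2a1 to Slc2a4 (-0.16 to 0.19), Eno1 to Eno3 (-0.16 to 0.14), Pygb to Pygm (-0.0932 to 0.0294) and Pfkp to Pfkm (-0.0369 to 0.219). Depth limits the low members in the library of 1036483 counts.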
